A study of Mus musculus with 6 samples.

Results

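The genes of 3 linked families were followed across the lines: the collagens, which build fibres and sheets outside the cell, the laminins, which lay down the basement membrane, and the integrins, the receptors that hold cells to both. Members were chosen by name alone. Every probe was taken whose gene symbol, current or older, was Col with a chain number, Lama, Lamb or Lamc with a number, or began with Itga or Itgb, with the Itgb1bp and Itgb3bp genes left out. This gave 190 probes for 80 genes, of 41174 gene probes and 18295 named genes on the array. The 80 genes were 11 fibrillar collagens, 6 collagen IV chains, 26 other collagens, 10 laminin chains, 17 integrin alpha chains and 10 integrin beta genes.

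The arrays compared 3 mouse induced pluripotent stem (iPS) cell lines, iPS5, iPS1 and iPS4, with RNA pooled from embryonic stem (ES) cells. The lines were grown from picked colonies of OG2 mouse embryonic fibroblasts (MEFs), which carry a GFP reporter of the pluripotent state. The fibroblasts had been infected with pMX retroviruses for Oct4, Sox2, Klf4 and c-Myc together with the subunits of the general transcription factor TFIID: TBP and the TBP-associated factors TAF13, TAF12, TAF11, TAF10, TAF9, TAF7, TAF6, TAF5, TAF4b, TAF4 and TAF3. All 3 lines came from this same mixture. The ES cells, also OG2, are given no virus in the labels. The labels give MEF as the cell type of the lines, yet all 10 listed markers of pluripotent cells were above background in them on every array. Lines and ES cells grew on irradiated MEF feeders with LIF, and the labels do not say that feeders were removed before RNA extraction. Every line was hybridised on 2 arrays, once in each dye, always against the same ES pool, which counts as 1 control sample.

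A fibrillar collagen is spun as a triple helix, trimmed outside the cell and packed into the fibres that fibroblasts and other mesenchymal cells make. Collagen IV does not form fibres. It is woven into a sheet that, with the separate sheet built from laminin trimers of 1 alpha, 1 beta and 1 gamma chain, makes the basement membrane. In the mouse embryo the first basement membranes lie between the epiblast, which ES and iPS cells resemble, and the primitive endoderm, and integrins on the epiblast bind their laminin.

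Values are log2 ratios of iPS over ES signal, so 0 is equal signal, 1 is a 2-fold higher signal and a negative value is lower in the line. They were computed from the scanner intensities, and a gene with several probes is given by its brightest one. A gene was called where limma's adjusted p, over all gene probes, was under 0.05. Of the 80 genes, 38 (47.5%) were above background in both dyes on all 6 arrays, against 58.4% of all genes, and 7 were so on none. No member was saturated. The iPS5 arrays were dimmer: 44.37 to 64.62% of probes exceeded background per channel, against 64.55 to 88.05% on the iPS1 and iPS4 arrays. Raw median signals were 52.17 to 63.24 on the iPS5 arrays and 97.91 to 160.3 on the others. Duplicate arrays correlated at r = 0.656 over all probes for iPS5, 0.741 for iPS1 and 0.766 for iPS4 in the ratios computed here. In the authors' deposited ratios they correlated at r = 0.819 for iPS5, 0.941 for iPS1 and 0.949 for iPS4. Each difference of iPS5 from the other lines below was measured across this gap in signal, and the part of the gap in it was not tested. The spread between duplicate arrays may be technical, and fewer cells of a type cannot be told apart from less RNA per cell in these bulk samples.

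Averaged over the 3 lines, 1 member was called against the ES pool. Lama5, the laminin alpha chain of many epithelial basement membranes, passed in limma on the 3 line means: 1 of 80 genes (1.25%), against 10.2% of all genes. Lama5 had log2 ratios of 0.39 and 0.28 on the iPS5 arrays, 0.44 and 0.60 on the iPS1 arrays and 0.28 and 0.29 on the iPS4 arrays. All 6 were above 0, and the mean over the lines was 0.38 ± 0.12 (SD, n = 3 lines, adjusted p = 0.0438, limma), a 1.3-fold higher level than in the ES pool. The family medians of the line means were -0.17 for the fibrillar collagens, -0.14 for collagen IV, -0.05 for the other collagens, 0.12 for the laminins, 0.04 for the integrin alpha chains and -0.03 for the integrin beta genes. Over all 18295 genes the median was 0.00. At an unadjusted p under 0.05, 21 of 80 members passed, and 11726 of all 41174 gene probes. The number called against the pool was set by the fit: 0 of 80 where the ES pool was given the spread of a line, 13 without iPS5, and 37 with all 6 arrays entered singly. Without iPS1 or without iPS4 it was 0, with 12 and 5 members at an unadjusted p under 0.05. The whole array moved too, from 3161 of 41174 gene probes as reported. It gave 0 with the ES pool given the spread of a line, 5422 without iPS5 and 18182 with 6 arrays. Without iPS1 or without iPS4 it gave 0.

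Differences among the lines were called for more members, with iPS5 mostly the high line. The F test among the 3 lines called 24 of 80 members (30%), against 25.2% of all genes. In 21 of the 24 (87.5%), iPS5 was the highest line, as it was in 39.5% of the 4605 genes called in this test over the whole array. iPS1 was the lowest line in 15 (62.5%), against 33% of all called genes, and iPS5 was the lowest in 2 (8.33%), against 38.9%. All 14 collagens among them were highest in iPS5 and below the ES pool in both iPS1 and iPS4. For Col26a1 iPS5 and iPS1 were nearly equal, at -0.09 and -0.10. The iPS channel of Col26a1 and of Col16a1 was above background on neither iPS5 array. The calls made up 6 of 11 fibrillar collagens, 3 of 6 collagen IV chains, 4 of 10 laminins, 3 of 10 integrin beta genes, 5 of 26 other collagens and 3 of 17 integrin alpha chains. The calls depended on the background correction and normalization: with a normexp offset of 0, limma called none of the 80, with a smallest adjusted p of 0.065 and 27 members at an unadjusted p under 0.05. With median centring in place of loess it called 4. Over all 41174 gene probes these settings called 0 and 640, against 8241 as reported. The sign of iPS5 minus iPS1 was kept in 23 and 24 of the 24 genes in these 2 settings.

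**Figure D1:**
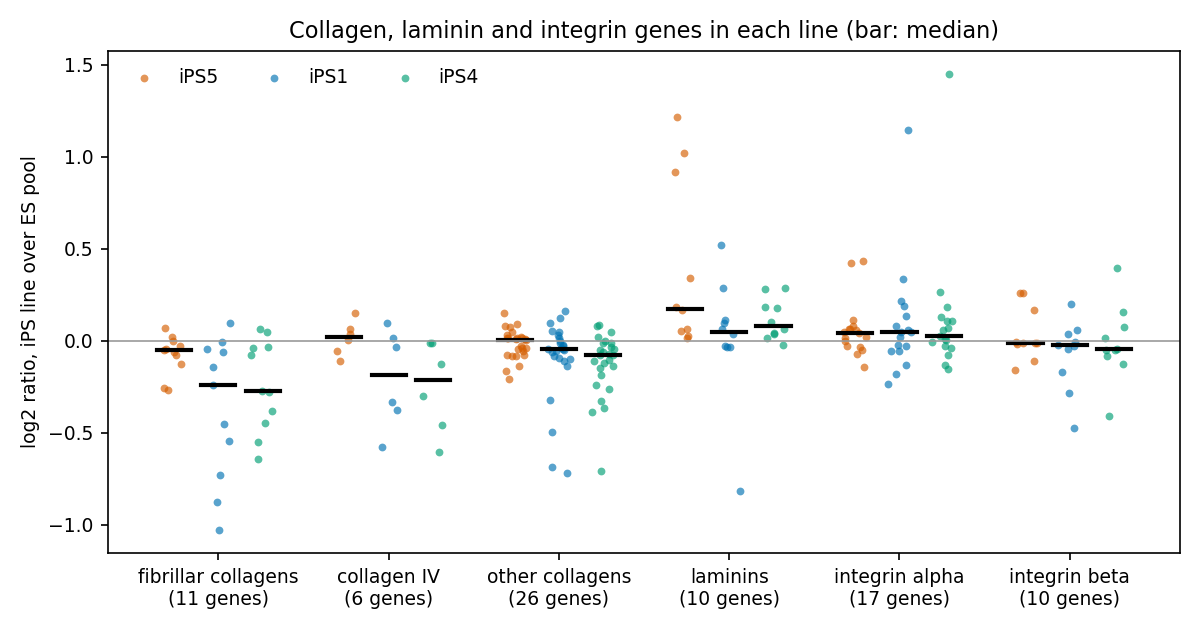
Log2 ratio of each line over the ES pool (vertical axis) for every member gene, by family along the horizontal axis. Each point is 1 gene and the mean of 2 arrays of a line, and black bars are family medians; the fibrillar collagen medians were -0.05 in iPS5, -0.24 in iPS1 and -0.27 in iPS4, while the integrin alpha medians lay between 0.03 and 0.05 in all 3 lines.

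In pairs of lines the direction was uneven. Against iPS1, iPS5 was called higher for 19 members (10.8% of all genes were called higher) and lower for 2 (12.2% of all genes). Against iPS4, iPS5 was called higher for 20 members (7.4% of all genes) and lower for 2 (5.94% of all genes). Between iPS1 and iPS4 there were 7 calls, with iPS1 higher for 1 (7.56% of all genes) and lower for 6 (4.49% of all genes). Set singly against the ES pool, iPS5 was called higher for 11 members (13.9% of all genes) and lower for 6 (13% of all genes). iPS1 was called higher for 8 (21.5% of all genes) and lower for 20 (21.2% of all genes), and iPS4 was called higher for 9 (20.6% of all genes) and lower for 19 (23.2% of all genes). These 3 sets of calls share the ES pool. In the pairs, limma with a normexp offset of 0 called 8 members for iPS5 minus iPS1, none for iPS5 minus iPS4 and none for iPS1 minus iPS4, with 27, 25 and 13 at an unadjusted p under 0.05. Leaving out 1 array gave 14 to 25 calls for iPS5 minus iPS1. It gave 5 to 22 for iPS5 minus iPS4, with 6 and 5 without iPS4 replicate 1 or 2 and 13 without an iPS1 array. It gave 1 to 17 for iPS1 minus iPS4, with 17 without an iPS5 array and 1 without any other. Against the ES pool, the genes called lower included 6 of 11 fibrillar collagens and 3 of 6 collagen IV chains in iPS1, and the same numbers in iPS4.

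Among the fibrillar collagens, the chains of the common connective tissue fibres were lower than in the ES pool in iPS1 and iPS4 and nearer to it in iPS5, where Col1a1 and Col1a2 were still called lower (adjusted p = 0.00327 and 0.00323, limma on arrays). Col1a1, the main chain of type I collagen, had log2 ratios of -0.33 and -0.19 on the iPS5 arrays, -1.0 and -1.06 on the iPS1 arrays and -0.58 and -0.70 on the iPS4 arrays. The lines did not overlap, with iPS5 nearest the ES pool and iPS1 farthest from it. The level in iPS5 was 1.71-fold that in iPS1, a log2 difference of 0.78 ± 0.05 (SE, adjusted p = 0.000237, limma, 2 arrays each), and 1.31-fold that in iPS4. Its mean over the lines was -0.64 ± 0.39 (SD, n = 3 lines), which was not called against the pool (adjusted p = 0.0967, limma). The 2 dimmer probes of Col1a1 ran the same way over the lines with smaller sizes, and 1 of them was called in the F test.

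Col1a2, the partner chain of type I collagen, had -0.24 and -0.30 on the iPS5 arrays, -0.94 and -0.81 on the iPS1 arrays and -0.56 and -0.55 on the iPS4 arrays. Col3a1, whose collagen III is laid into the same fibres, had -0.14 and -0.11 in iPS5, -0.78 and -0.68 in iPS1 and -0.40 and -0.37 in iPS4. For both genes the order of the lines was that of Col1a1 and no 2 lines overlapped. The difference iPS5 minus iPS1 was 0.61 ± 0.06 for Col1a2 (SE, adjusted p = 0.000716, limma). For Col3a1 it was 0.60 ± 0.06 (SE, adjusted p = 0.000789, limma). The means over the lines, -0.57 ± 0.31 for Col1a2 and -0.41 ± 0.30 for Col3a1 (SD, n = 3 lines), were not called against the pool (adjusted p = 0.0812 and 0.134, limma). The brightest probe alone was called in the F test for each, of 2 for Col1a2 and 3 for Col3a1.

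Collagen V, a minor chain set that starts and limits fibre growth, was nearer 0. Col5a1 had -0.10 and -0.05 in iPS5, -0.46 and -0.44 in iPS1 and -0.42 and -0.48 in iPS4. Here iPS1 and iPS4 overlapped and both lay below iPS5, by 0.38 ± 0.05 and 0.37 ± 0.05 (SE, adjusted p = 0.00394 and 0.00827, limma). A second Col5a1 probe, also above background on all 6 arrays, gave 0.08 in iPS5, 0.02 in iPS1 and -0.07 in iPS4 and was not called in the F test (adjusted p = 0.256, limma). Col5a2 had -0.07 and -0.04 in iPS5, -0.56 and -0.53 in iPS1 and -0.28 and -0.27 in iPS4, with no overlap. Its difference iPS5 minus iPS1 was 0.50 ± 0.05 (SE, adjusted p = 0.00121, limma). Col5a3, picked out after its values were seen, was the sixth fibrillar gene called in the F test, with line values of 0.00 in iPS5, -0.24 in iPS1 and -0.28 in iPS4. Only the brighter of its 2 probes was called. The fibrillar genes of cartilage and their relatives, Col2a1, Col11a1, Col11a2, Col24a1 and Col27a1, were not called in the F test on their brightest probes, and their means over the lines ranged from -0.05 to 0.05. A dimmer Col2a1 probe, above background on all 6 arrays, was called, with -0.04 in iPS5, -0.33 in iPS1 and -0.33 in iPS4 (adjusted p = 0.0127, limma). Col11a1, the highest of the family, averaged 0.05 ± 0.04 (SD, n = 3 lines, adjusted p = 0.348, limma).

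**Figure D2:**
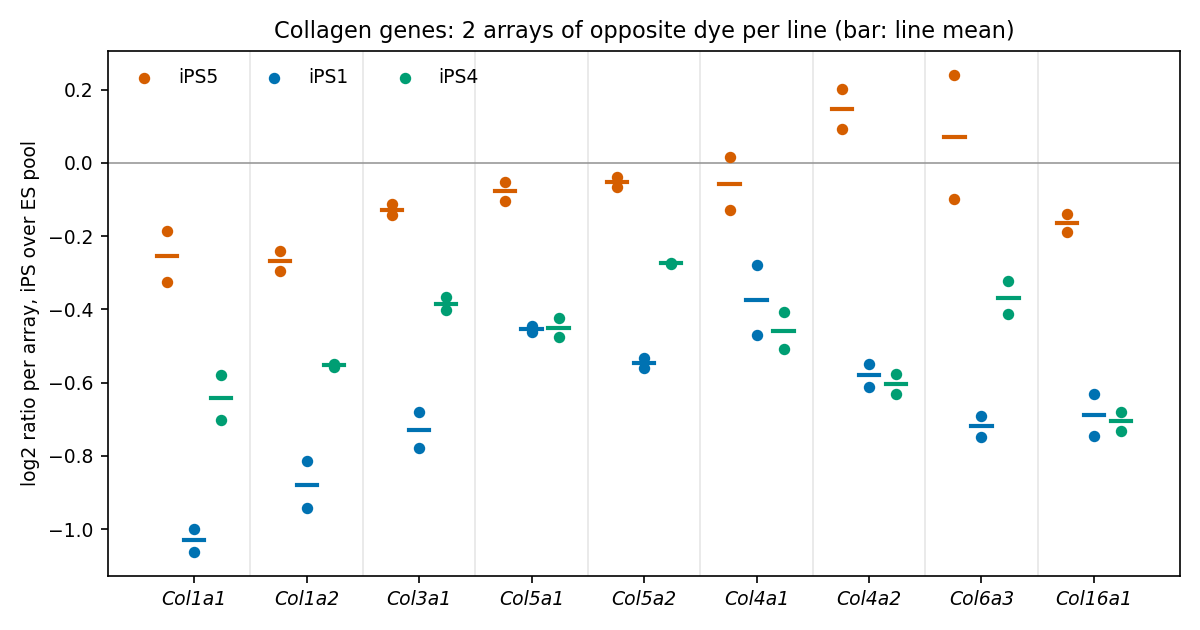
Log2 ratio over the ES pool on each of the 6 arrays (vertical axis) for 9 collagen genes along the horizontal axis. Points are arrays, 2 per line and of opposite dye, and bars are line means; iPS5 lies highest for every gene shown, and Col1a1 reached -1.06 on an iPS1 array.

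The collagen IV chains of nearly all basement membranes, Col4a1 and Col4a2, showed the same division of the lines. Col4a2 had 0.20 and 0.09 in iPS5, -0.61 and -0.55 in iPS1 and -0.58 and -0.63 in iPS4. Both iPS5 arrays were above 0, and the arrays of the other lines overlapped each other well below it. The level in iPS5 was 1.66-fold that in iPS1 and 1.68-fold that in iPS4, a log2 difference of 0.75 ± 0.06 from iPS4 (SE, adjusted p = 0.00153, limma). Col4a1 had -0.13 and 0.02 in iPS5, -0.28 and -0.47 in iPS1 and -0.41 and -0.51 in iPS4. The iPS5 arrays lay above the other 4, by 0.40 ± 0.05 against iPS4 (SE, adjusted p = 0.00672, limma). Its second brightest probe gave a wider split, with line values of 0.32 in iPS5, -1.02 in iPS1 and -1.19 in iPS4. The third brightest did not share the split, with -0.01 in iPS5, 0.07 in iPS1 and 0.11 in iPS4 (F test adjusted p = 0.347, limma), and was above background in the iPS channel on 5 arrays. Neither gene was called against the pool over the 3 lines, with adjusted p = 0.134 for Col4a1 and 0.303 for Col4a2 (limma).

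The pair is shown by sequence because the genes sit head to head on chromosome 8 and are read from a shared start region. Below are the RefSeq windows of GRCm38.p6 from 250 bases before to 50 bases after each start, with those of Col1a2 and Col3a1, which were also highest in iPS5. The windows are chr8:11312777-11313076 on the minus strand for Col4a1 and chr8:11312555-11312854 on the plus strand for Col4a2, which share 78 bases. Those of the fibrillar genes are chr6:4505368-4505667 for Col1a2 and chr1:45311288-45311587 for Col3a1, both on the plus strand. Capitals mark GGGCGG (the GC box), CCAAT and TATAAA on either strand.
Col4a1: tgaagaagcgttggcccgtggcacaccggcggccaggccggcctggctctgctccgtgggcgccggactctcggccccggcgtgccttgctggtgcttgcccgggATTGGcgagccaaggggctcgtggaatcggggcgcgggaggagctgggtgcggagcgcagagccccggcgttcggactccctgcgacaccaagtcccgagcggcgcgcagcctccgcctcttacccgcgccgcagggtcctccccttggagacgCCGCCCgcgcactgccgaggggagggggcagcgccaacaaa
Col4a2: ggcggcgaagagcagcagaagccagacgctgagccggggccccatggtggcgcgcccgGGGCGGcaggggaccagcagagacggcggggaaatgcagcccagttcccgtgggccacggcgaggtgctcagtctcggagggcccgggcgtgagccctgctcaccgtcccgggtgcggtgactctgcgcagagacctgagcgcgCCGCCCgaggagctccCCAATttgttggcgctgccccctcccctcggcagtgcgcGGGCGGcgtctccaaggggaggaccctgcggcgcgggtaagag
Col1a2: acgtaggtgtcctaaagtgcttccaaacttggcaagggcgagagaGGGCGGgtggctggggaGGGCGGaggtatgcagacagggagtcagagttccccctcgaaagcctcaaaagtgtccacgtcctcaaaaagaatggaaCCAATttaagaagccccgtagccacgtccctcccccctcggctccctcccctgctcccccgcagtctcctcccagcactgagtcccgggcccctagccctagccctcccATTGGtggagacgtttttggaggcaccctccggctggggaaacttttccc
Col3a1: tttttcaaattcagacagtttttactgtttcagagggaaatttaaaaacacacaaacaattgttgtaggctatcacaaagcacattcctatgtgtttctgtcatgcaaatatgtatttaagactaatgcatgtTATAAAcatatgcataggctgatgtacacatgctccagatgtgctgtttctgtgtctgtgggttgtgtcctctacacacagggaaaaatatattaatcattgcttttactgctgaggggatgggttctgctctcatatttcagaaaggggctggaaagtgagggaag
The 3 motifs do not overlap one another in these windows. Of all 32851 windows in the table, 35.7% hold the GC box letters, 37.4% CCAAT and 13.6% TATAAA. Bases G and C made up 74% of the Col4a1 window, 73.7% of the Col4a2 window, 61% of the Col1a2 window and 37.7% of the Col3a1 window. Col3a1 alone of the 4 holds TATAAA and has neither of the other motifs. These matches describe the windows only. Of the 80 members, 59 had a window in the table.

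Of the 4 tissue-restricted collagen IV chains, Col4a4, singled out after its values were seen, was called in the F test, with 0.00 in iPS5, -0.34 in iPS1 and -0.30 in iPS4, but its duplicate iPS5 arrays gave -0.28 and 0.29. Col4a3, Col4a5 and Col4a6 were not called, and Col4a6, the highest of the family, averaged 0.05 ± 0.06 (SD, n = 3 lines, adjusted p = 0.461, limma). Col18a1, a basement membrane collagen that carries heparan sulfate, had -0.28 and -0.13 in iPS5, -0.13 and -0.04 in iPS1 and -0.31 and -0.22 in iPS4. All 6 arrays were below 0, yet the mean of -0.19 ± 0.09 (SD, n = 3 lines) was not called (adjusted p = 0.0948, limma) and the lines overlapped.

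Of the 26 other collagens, 5 (19.2%) were called in the F test, below the 25.2% of all genes. Col16a1, a fibril-associated collagen, had -0.19 and -0.14 in iPS5, -0.75 and -0.63 in iPS1 and -0.68 and -0.73 in iPS4. The iPS channel was above background on only 2 of the 6 arrays and on neither iPS5 array, so the iPS5 level is a bound: its ES signal was at least 1.12-fold higher than its iPS signal. The mean of -0.52 ± 0.31 (SD, n = 3 lines) was not called against the pool (adjusted p = 0.0948, limma). The remaining 4, named after their values were seen, were Col6a1, Col6a3, Col8a1 and Col26a1. Col26a1 had -0.09 in iPS5, -0.10 in iPS1 and -0.33 in iPS4. Its iPS5 and iPS1 values were not called apart (adjusted p = 0.93, limma). Col6a3, a chain of the beaded-filament collagen VI, had the widest split, with 0.24 and -0.10 in iPS5, -0.69 and -0.75 in iPS1 and -0.41 and -0.32 in iPS4. The iPS5 arrays lay on either side of 0 and above the other 4, and the fitted difference of iPS5 from iPS1 was 0.79 ± 0.09 (SE, adjusted p = 0.00176, limma). Only the brightest probe was called in the F test for Col6a3, of 4, and for Col16a1 and Col26a1, of 2 each. Col17a1, the transmembrane collagen of hemidesmosomes, was the highest of this group at 0.09 ± 0.07 (SD, n = 3 lines, adjusted p = 0.25, limma), and its iPS channel was not well above background on either iPS5 array.

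Of the 10 laminins, 4 (40%) were called among the lines, against 25.2% of all genes. iPS5 was the high line for 3 of the 4, and the difference for Lama1 was the widest of any member. Lama1, the alpha chain of the earliest embryonic basement membranes, had log2 ratios of 1.26 and 0.78 on the iPS5 arrays, -0.92 and -0.72 on the iPS1 arrays and 0.05 and 0.30 on the iPS4 arrays. The lines did not overlap, and the ES pool lay between them: iPS5 was above it and iPS1 below it on both arrays. The level in iPS5 was 3.57-fold that in iPS1, a difference of 1.84 ± 0.07 (SE, adjusted p = 5.02e-05, limma), and 1.8-fold that in iPS4. Over the 3 lines this left a mean of 0.13 ± 0.92 (SD, n = 3 lines, adjusted p = 0.875, limma). The second probe of Lama1 was above background on no array.

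Lamc1, the gamma chain shared by most laminins, had 0.81 and 1.02 in iPS5, 0.23 and -0.03 in iPS1 and 0.37 and 0.18 in iPS4. The iPS5 arrays were apart from the other 4, among which iPS1 and iPS4 overlapped, and iPS5 minus iPS1 was 0.82 ± 0.05 (SE, adjusted p = 0.000191, limma). Lama3, an alpha chain of epithelial laminins, had 1.35 and 1.07 in iPS5, 0.10 and 0.13 in iPS1 and 0.05 and 0.03 in iPS4. Its difference iPS5 minus iPS4 was 1.17 ± 0.08 (SE, adjusted p = 0.000836, limma), but a second probe, also above background on all 6 arrays, gave -0.06 in iPS5, -0.03 in iPS1 and 0.07 in iPS4, so the gene's change rests on 1 of 2 probes.

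Lamb1, the beta chain that joins Lama1 and Lamc1, did not follow them. It had 0.42 and -0.09 in iPS5, 0.01 and 0.57 in iPS1 and -0.28 and 0.24 in iPS4, with overlapping arrays that parted by dye orientation rather than by line. With the dye term in the fit it was called in the F test (adjusted p = 0.0158, limma), as 0.31 ± 0.05 higher in iPS1 than in iPS4 (SE, adjusted p = 0.0139, limma). In the authors' deposited ratios Lamb1 did not part by dye. There it had 0.21 and 0.03 in iPS5, 0.22 and 0.25 in iPS1 and -0.09 and -0.11 in iPS4. Lama4, an alpha chain of vessel walls and the lowest of the family, averaged -0.0025 ± 0.029 (SD, n = 3 lines, adjusted p = 0.969, limma), with its iPS channel not well above background on either iPS5 array. That is its brightest probe, and 2 of the 3 dimmer ones were called in the F test. The second brightest had -0.06 in iPS5, -0.49 in iPS1 and -0.45 in iPS4 (adjusted p = 0.00427, limma), and the other had -0.04 in iPS5, -0.32 in iPS1 and -0.28 in iPS4 (adjusted p = 0.0365, limma). Both were above background in the iPS channel on only 2 arrays. Lama2, Lamb2, Lamb3 and Lamc3 were not called among the lines. Lama5, the member called against the pool, did not pass the F test (adjusted p = 0.0606, limma).

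**Figure D3:**
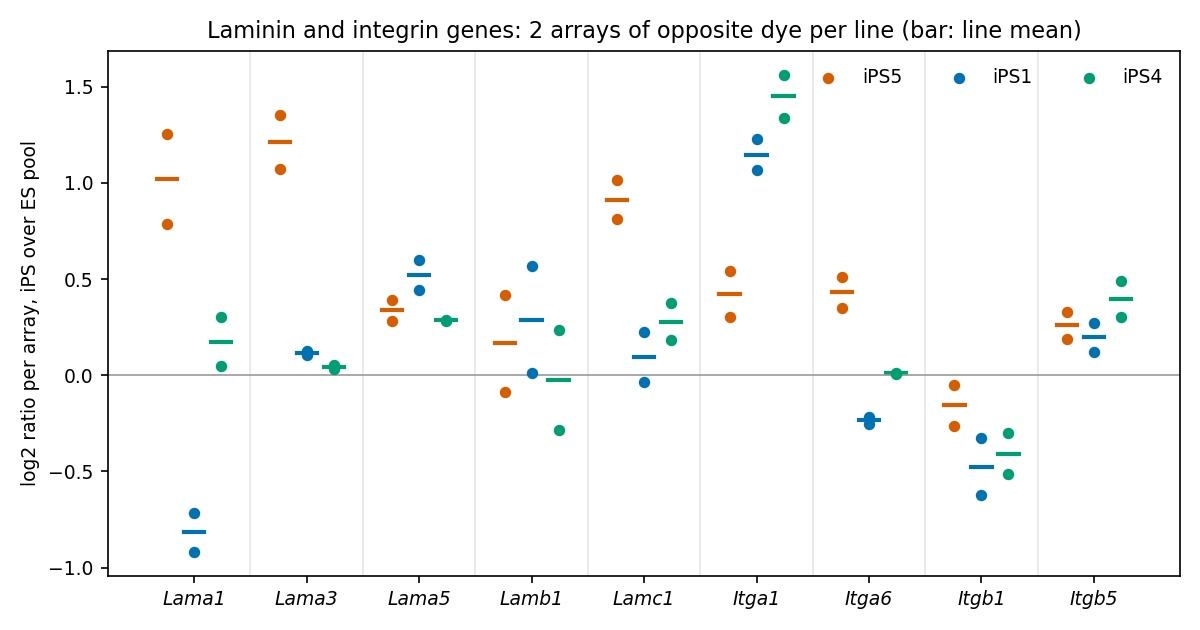
Log2 ratio over the ES pool on each of the 6 arrays (vertical axis) for 5 laminin and 4 integrin genes along the horizontal axis. Points are arrays, 2 per line and of opposite dye, and bars are line means; Lama1 spans 1.26 on an iPS5 array to -0.92 on an iPS1 array, and Itga1 is lowest in iPS5.

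Of the 17 integrin alpha chains, 14 were not called among the lines, with means over the lines of -0.16 to 0.14 among those 14. The 3 called were 17.6% of the family, below the 25.2% of all genes. Itga1, the collagen and laminin binding alpha chain, had the highest mean of the family and, like Itga4, its lowest value in iPS5. It had 0.54 and 0.30 in iPS5, 1.06 and 1.23 in iPS1 and 1.34 and 1.56 in iPS4. All 6 arrays were above 0 and the lines did not overlap, with iPS5 lowest and iPS4 highest. The mean of 1.01 ± 0.53 (SD, n = 3 lines) corresponds to a 2.01-fold level over the ES pool and was not called (adjusted p = 0.0761, limma). iPS5 minus iPS4 was -1.03 ± 0.05 (SE, adjusted p = 0.000347, limma). Of the 4 Itga1 probes only the brightest was called in the F test, and the next, above background on fewer arrays, ran the other way, with -0.06 in iPS5, -0.35 in iPS1 and -0.37 in iPS4.

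Itga6, the alpha chain with which ES cells bind laminin, had 0.35 and 0.51 in iPS5, -0.22 and -0.25 in iPS1 and 0.01 and 0.01 in iPS4. The lines did not overlap, and iPS5 minus iPS1 was 0.67 ± 0.06 (SE, adjusted p = 0.00068, limma). Of its 5 probes, 3 were called in the F test but did not share 1 order of lines: the third brightest repeated iPS5 above iPS4 above iPS1, whereas the second gave 0.12 in iPS5, 0.26 in iPS1 and -0.21 in iPS4. Itga4, a fibronectin and cell-adhesion receptor chain named after its values were seen, had line values of 0.34 in iPS1 and 0.26 in iPS4, and neither channel was above background on the iPS5 arrays. Of the 8 Itga4 probes only the brightest was called in the F test. Itga5, the fibronectin receptor chain, averaged 0.08 ± 0.02 (SD, n = 3 lines, adjusted p = 0.164, limma). Itgav, the alpha chain of the vitronectin receptors, averaged 0.13 ± 0.05 (SD, n = 3 lines, adjusted p = 0.113, limma). Itga3, another laminin-binding chain, averaged 0.04 ± 0.03 (SD, n = 3 lines, adjusted p = 0.529, limma). None of these 3 differed among the lines by the F test on its brightest probe, although a dimmer probe of Itga3 and one of Itga5 were called. Itgal, the leukocyte chain and lowest of the family, averaged -0.16 ± 0.02 (SD, n = 3 lines, adjusted p = 0.0535, limma), with its arrays parted by dye orientation at -0.36 to 0.03. In the authors' deposited ratios its arrays ran from -0.20 to -0.07.

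Among the beta chains, Itgb1, the partner of most matrix-binding alpha chains, was the lowest. It had -0.05 and -0.27 in iPS5, -0.62 and -0.33 in iPS1 and -0.51 and -0.30 in iPS4. All 6 arrays were below 0, and the iPS5 arrays lay above those of the other lines. The mean of -0.35 ± 0.17 (SD, n = 3 lines) was not called (adjusted p = 0.074, limma), while iPS5 minus iPS1 was 0.32 ± 0.05 (SE, adjusted p = 0.00795, limma). A second well-measured probe gave -0.11 in iPS5, -0.59 in iPS1 and -0.53 in iPS4. Itgb5, a beta partner of Itgav, was the highest, with 0.19 and 0.33 in iPS5, 0.27 and 0.12 in iPS1 and 0.49 and 0.30 in iPS4. All 6 arrays were above 0 and overlapped between lines, and the mean of 0.28 ± 0.10 (SD, n = 3 lines) missed the threshold (adjusted p = 0.0541, limma). Itgb4, the partner of Itga6 in hemidesmosomes, and Itgb7, a lymphocyte chain, were named after their values were seen. Both were called in the F test with iPS5 highest: 0.26 in iPS5, -0.05 in iPS1 and 0.02 in iPS4 for Itgb4, and 0.16 in iPS5, -0.28 in iPS1 and -0.09 in iPS4 for Itgb7.

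The authors' own log2 ratios per array gave nearly the same picture. Over the 80 genes the mean of the lines had the same sign in 77, the median absolute difference between the sources was 0.019 and the largest was 0.11, for Col16a1. In the deposited ratios the median of the fibrillar collagens was -0.09 and -0.07 on the iPS5 arrays, -0.33 and -0.19 on the iPS1 arrays and -0.25 and -0.32 on the iPS4 arrays. For collagen IV it was -0.02 and 0.02 in iPS5, -0.26 and -0.14 in iPS1 and -0.20 and -0.24 in iPS4. In the medians of both families the iPS5 arrays thus lay nearest 0, with no overlap with the other lines. Not every basement membrane collagen followed. Deposited line values were -0.24 in iPS5, -0.10 in iPS1 and -0.28 in iPS4 for Col18a1. For Col4a5 they were -0.14, -0.07 and -0.19 in the same order of lines, and for Col4a6 0.05, 0.12 and 0.02. The other collagens had deposited medians of 0.02 and -0.03 in iPS5, -0.04 and -0.06 in iPS1 and -0.08 and -0.11 in iPS4. The laminins had 0.21 and 0.11 in iPS5, 0.04 and 0.05 in iPS1 and 0.13 and 0.08 in iPS4, with the iPS5 and iPS4 arrays overlapping. The integrin alpha chains ranged from -0.01 to 0.04 over the 6 arrays and the integrin beta genes from -0.08 to 0.05. Over all genes the deposited medians ranged from -0.02 to 0.01.

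**Figure D4:**
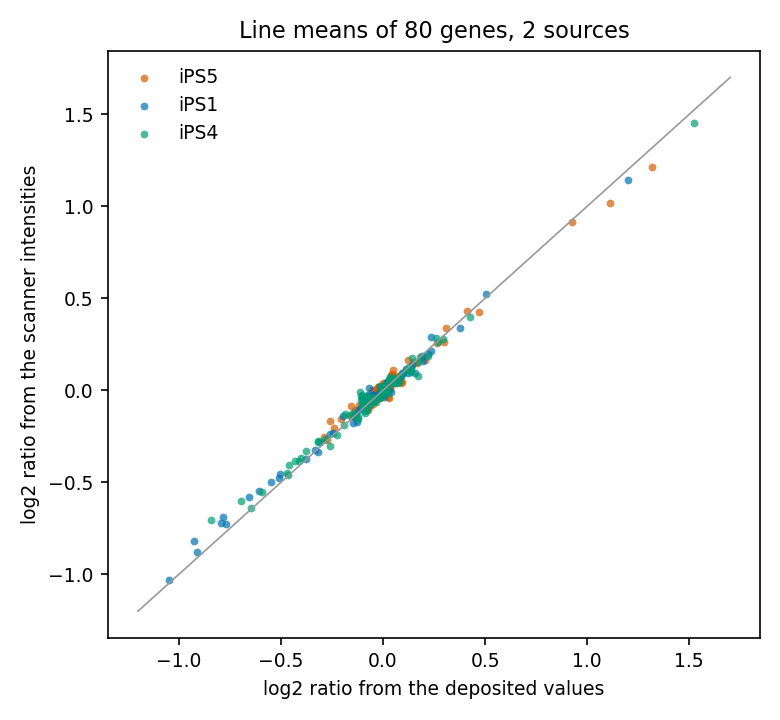
Line means of the 80 genes as log2 ratios over the ES pool, from the scanner intensities (vertical axis) against the authors' deposited ratios (horizontal axis). Each gene has 3 points, 1 per line, and the line marks equality; the means over the lines differed by at most 0.11 between the sources.

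With the deposited ratios, the limma fit on line means called Lama5 (adjusted p = 0.0439) and Itgb5 (adjusted p = 0.0425), and the F test called 21 members, all of them among the 24. Of all 41174 gene probes, the fit on line means called 4003 and the F test 7050 with these ratios. In the authors' deposited table, whose test is not stated, 6 of 80 members (7.5%) had p under 0.05, against 10.8% of all genes. These were Itga1 at p = 0.0062, Col16a1 at 0.0178, Lama5 at 0.0198, Itgb1 at 0.0266, Col1a2 at 0.036 and Col1a1 at 0.0458 in the authors' deposited table. That table gives no values by line.

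Genes that fold, modify and cross-link collagen were lower in part, and some were higher in single lines. Of 27 measured of 29 listed, 4 were called lower than the ES pool and none higher (4.95% and 5.21% of all genes), and 18 were called in the F test (25.2% of all genes). The list's median was -0.01 in iPS5, -0.33 in iPS1 and -0.12 in iPS4. In 22 of the 27, called or not, iPS5 was above both other lines (39.5% of F test calls over the array, uncalled genes not counted). The 4 called lower were P4ha1, a prolyl hydroxylase subunit, Plod2, a lysyl hydroxylase, Loxl2, a cross-linking oxidase, and Adamts14, a propeptide-removing protease. P4ha1 had -0.62 in iPS5, -0.99 in iPS1 and -1.27 in iPS4, with a mean of -0.96 ± 0.33 (SD, n = 3 lines, adjusted p = 0.042, limma). Loxl2 averaged -0.97 ± 0.24 (SD, n = 3 lines, adjusted p = 0.0302, limma). Serpinh1, the collagen chaperone, followed the fibrillar chains, with -0.05 in iPS5, -0.997 in iPS1 and -0.62 in iPS4, and was not called against the pool (adjusted p = 0.175, limma). Pcolce, named after its values were seen, had 0.998 in iPS5, -0.47 in iPS1 and 0.60 in iPS4. Set singly against the pool, iPS5 was called higher for 7 of the list (13.9% of all genes) and lower for 5 (13%). iPS1 was called higher for 1 (21.5%) and lower for 20 (21.2%), and iPS4 higher for 3 (20.6%) and lower for 12 (23.2%).

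Partners of laminin and collagen IV and the matrix ligands of integrins (23 genes) had no member called against the pool by limma (8 at an unadjusted p under 0.05) and 14 called in the F test (25.2% of all genes). Their median was 0.03 in iPS5, -0.06 in iPS1 and 0.01 in iPS4. In 12 of the 23, called or not, iPS5 was above both other lines. Nid1, which links the laminin and collagen IV sheets, had 0.04 in iPS5, -0.92 in iPS1 and -0.22 in iPS4. Its relative Nid2, not called in the F test, had 0.13 in iPS5, 0.26 in iPS1 and 0.24 in iPS4. Frem2, named after its values were seen and called in the F test, was also lowest in iPS5, with 0.77 against 1.95 in iPS1 and 2.16 in iPS4. Of 8 other laminin and collagen receptors, Sdc4, a syndecan, was called higher at 0.53 ± 0.12 and Dag1, dystroglycan, lower at -0.44 ± 0.06 (SD, n = 3 lines, adjusted p = 0.0305 and 0.0238, limma). Each was 1 of 8, against 5.21% of all genes higher and 4.95% lower, and 3 of the 8 were called in the F test. Of 27 genes that join integrins to the cytoskeleton, Itgb1bp1 was called higher at 0.29 ± 0.07 (SD, n = 3 lines, adjusted p = 0.0381, limma), none lower, and 13 in the F test. Of 12 measured matrix proteases and inhibitors of 13 listed, none was called against the pool by limma (5 at an unadjusted p under 0.05) and 7 were called in the F test. In 9 of these 12, called or not, iPS5 was above both other lines.

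Most listed markers of fibroblasts, of endoderm and of pluripotent cells were also highest in iPS5, and those of mesoderm in iPS1. Of 15 fibroblast markers, 4 were called lower than in the ES pool (Dcn, Thy1, Cdh11 and S100a4), none higher (4.95% and 5.21% of all genes) and 11 in the F test (25.2%). Their median was -0.14 in iPS5, -0.45 in iPS1 and -0.49 in iPS4. For 14 of 15, called or not, iPS5 was above both other lines (39.5% of F test calls over the array, uncalled genes not counted). Their summed signal over the arrays was 6103 to 6699 in iPS5, 5024 to 5058 in iPS1, 4955 to 5105 in iPS4 and 7199 to 7890 in the ES channels. Dcn, decorin, had -1.05 in iPS5, -1.84 in iPS1 and -1.38 in iPS4, with the same order of lines as Col1a1. Fap was above background in the iPS channel on 1 array and in the ES channel on none, and the other 14 markers were above it in the iPS channel on 3 or more arrays. The part of fibroblast or feeder RNA in the collagen differences was not tested.

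Of 14 measured primitive and parietal endoderm markers of 15 listed, none was called against the pool by limma (1 at an unadjusted p under 0.05) and 11 were called in the F test (25.2% of all genes). Their median was 0.18 in iPS5, -0.34 in iPS1 and -0.50 in iPS4. For 13 of 14, called or not, iPS5 was above both other lines (39.5% of F test calls over the array, uncalled genes not counted). The summed signal was 3948 to 4206 in iPS5, 2208 to 2269 in iPS1, 1890 to 1910 in iPS4 and 2965 to 3363 in the ES channels. Cubn, an endocytic receptor of endoderm, had 1.07 in iPS5, -0.83 in iPS1 and -1.56 in iPS4. Gata4 and Sox17, factors of primitive endoderm, lay between -0.04 and 0.09 in all lines and were not called in the F test. Gata6, Pdgfra and Sox7, also made in that tissue, were called in the F test with iPS5 highest. Gata6 had 0.62 in iPS5, 0.12 in iPS1 and -0.40 in iPS4, and the receptor Pdgfra had 0.33 in iPS5, -0.05 in iPS1 and -0.24 in iPS4. Sox7 had 0.47 in iPS5, -0.38 in iPS1 and -0.39 in iPS4, with the iPS channel above background on 3 arrays and the ES channel on 5. Foxa2 was the 1 listed gene not highest in iPS5, with 0.02 in iPS5, 1.60 in iPS1 and 0.74 in iPS4. Lama1, Col4a1 and Col4a2 shared with this list the high position of iPS5, and the part of endoderm-like cells in their differences was not tested. The 5 mesoderm markers, none called against the pool by limma and 2 at an unadjusted p under 0.05, were all called in the F test with iPS1 highest, at a median of 0.09 in iPS5, 1.60 in iPS1 and 0.84 in iPS4.

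Of the 10 markers of pluripotent cells, Nanog (0.65 ± 0.13) and Sall4 (0.65 ± 0.02) were called higher and Tdgf1 (-0.38 ± 0.06) and Zfp42 (-2.74 ± 0.38) lower than in the ES pool (SD, n = 3 lines, limma; 5.21% and 4.95% of all genes), and 6 were called in the F test (25.2% of all genes). For 7 of the 10 pluripotent markers, called or not, iPS5 was above both other lines (39.5% of F test calls over the array, uncalled genes not counted). Their median was 0.09 in iPS5, -0.42 in iPS1 and -0.13 in iPS4. Of the 5 measured markers of endothelium and blood, of 7 listed, none was called against the pool by limma (1 at an unadjusted p under 0.05) and 1 was called in the F test (25.2% of all genes). That gene was Pecam1, an adhesion molecule of endothelium also found on pluripotent cells, with -0.35 in iPS5, -0.77 in iPS1 and -1.04 in iPS4. It was above background on all 6 arrays and was not called against the pool (adjusted p = 0.0675, limma). Cdh5 and Ptprc, defining markers of endothelium and of blood cells, were above background on 1 array each. Kdr was above it in the iPS channel on 5 arrays and in the ES channel on 4, and Tek on 5 and 6.

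**Figure D5:**
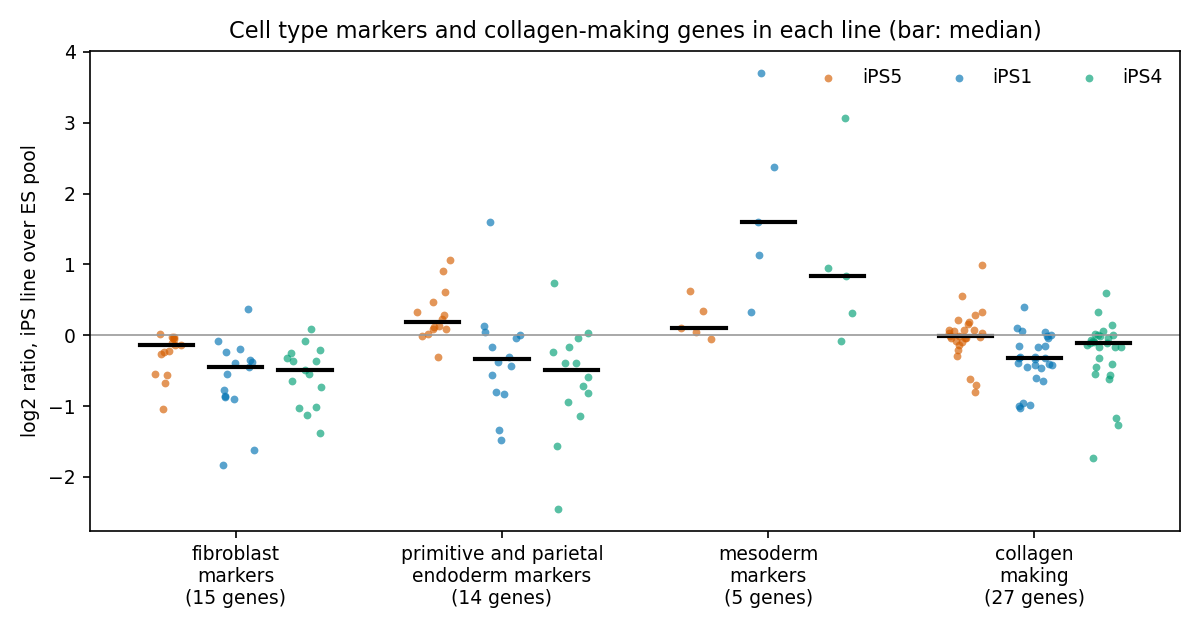
Log2 ratio of each line over the ES pool (vertical axis) for 3 lists of cell type markers and for the collagen-making genes, along the horizontal axis. Each point is 1 gene and the mean of 2 arrays of a line, and black bars are medians; the endoderm marker medians were 0.18 in iPS5, -0.34 in iPS1 and -0.50 in iPS4.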

How the data were processed

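RNA of 3 iPS lines was measured on 6 2-colour arrays against 1 ES pool. Per the file headers, the deposited scanner files give raw intensity and local background per spot and channel. The authors also deposited log2 ratios per array and a table of mean log2 ratios with a p-value per reporter; their normalization and test are not given in the sources used here. Dyes were taken per the labels, and on all 6 arrays the sign of the raw channel ratio against the deposited ratios followed them.

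Intensities were corrected with normexp (offset 50) and loess within each array (control spots at weight 0) in limma 3.58.1 under R 4.3.3, and turned to log2 iPS over ES. Of 45220 spots, 41174 were gene probes, of which 34186 had a symbol. A gene was represented by its brightest probe. The background limit of a channel was the 95th percentile of 604 spots of a dim control. Where the iPS channel of a line was above background on neither array, the fold is a bound against the lowest signal above background.

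The 2 arrays of a line were averaged and limma tested the 3 line means against 0 (two-sided), which leaves out the spread of the ES pool. The F test and pairs of lines came from limma on 6 arrays with line and dye terms. P-values were adjusted by Benjamini-Hochberg over all gene probes. The fits were tested on simulated data. The named genes were those called against the pool, the highest and lowest of each family, the 10 with the smallest F test p, and 18 main subunits; other names were added after values were seen. Members and gene lists were chosen with earlier results of these data known. Alternatives covered the source of the ratios, background, normalization, dim probes, several probes per gene, left-out arrays and lines, and the unit of replication.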

Additional observations from a re-analysis of the deposited data

Results flagged for a closer look

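For 15 of the 26 genes named by rule the ratio to the ES pool differed between lines by limma's F test. That test called 24 of the 80 members (30%), against 25.2% of all genes. The named genes include those chosen for the smallest F test p, so their calls follow in part from the choice. The share called among the named genes is therefore not comparable with the share among members or all genes. Each of the 15 is given by its widest pair of lines. iPS5 minus iPS1 was 1.84 for Lama1, 0.818 for Lamc1, 0.776 for Col1a1, 0.665 for Itga6, 0.61 for Col1a2, 0.601 for Col3a1, 0.496 for Col5a2, 0.375 for Col5a1 and 0.317 for Itgb1, in log2 units. iPS5 minus iPS4 was 1.17 for Lama3, 0.751 for Col4a2, 0.541 for Col16a1, 0.402 for Col4a1 and -1.03 for Itga1. iPS1 minus iPS4 was 0.311 for Lamb1. The spread behind each test comes from duplicate arrays. For Lama3 a second well-measured probe did not share the difference, and for Col16a1 the iPS signal of iPS5 was not above background.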

How the results depend on the processing

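Genes called against the ES pool numbered 1 as reported, 2 with the deposited ratios, 5 with a normexp offset of 0, 8 with plain background subtraction, 7 with median centring, 7 with arrays scaled to a common spread and 4 with only probes above background. They numbered 0 without line iPS1, 0 without line iPS4, 13 without line iPS5, 37 with all 6 arrays and a dye term, and 0 with the ES pool given the spread of a line (3 at an unadjusted p under 0.05). Over all 41174 gene probes the count was 3161 as reported, 4003 with deposited ratios, 4883 with offset 0 and 5530 with plain subtraction. It was 4967 with median centring, 5048 with scaled arrays and 5422 without line iPS5. Leaving out 1 array gave 0 to 5 members (457 to 5881 gene probes). It gave 0 when replicate 1 of any line was left out and 5 without iPS5 replicate 2. Replicate numbers are only the order of arrays in the series, and replicate 1 was Cy5 for iPS1 and iPS4 but Cy3 for iPS5. Genes called among the 3 lines numbered 24 as reported, 0 with offset 0, 4 with plain subtraction and 4 with median centring, and 15 to 30 without 1 array (15 without iPS1 replicate 1). Over all gene probes, 8241 were called as reported, 0 with offset 0, 584 with plain subtraction and 640 with median centring.

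In the same order of settings (offset 0, plain subtraction, median centring), iPS5 minus iPS1 called 8, 13 and 7 members against 21, iPS5 minus iPS4 called 0, 1 and 4 against 22, and iPS1 minus iPS4 called 0, 0 and 1 against 7. With scaled arrays the last 2 called 12 and 4. Without 1 array the 3 pairs called 14 to 25, 5 to 22 and 1 to 17; without iPS4 replicate 1 or 2 the second called 6 and 5, without iPS1 replicate 1 or 2 it called 13, and without an iPS5 array the third called 17. Against the pool, iPS5 had 4 calls with median centring and 11 with gene means (13 to 17 without 1 array). iPS1 had 17 with offset 0 and 18 with median centring (18 to 34), and iPS4 had 16 and 17 (17 to 39).

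Family medians moved as follows. Collagen IV was -0.29 with offset 0 and -0.28 with plain subtraction. Laminins were 0.21 and 0.19, and 0.054 to 0.15 without 1 array (0.054 without iPS5 replicate 1). Other collagens were -0.11 with offset 0. Integrin alpha was 0.014 with deposited ratios, 0.065 with offset 0, 0.061 with plain subtraction, 0.015 with gene means, 0.051 without line iPS4, 0.020 without line iPS5 and 0.025 to 0.049 without 1 array. Integrin beta was -0.044 with plain subtraction, 0.0025 with median centring, 0.0021 without line iPS1 and -0.030 to -0.0032 without 1 array.

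Of 800 values of single genes under an alternative, 24 changed sign, none of them called. With gene means these were Itga3 (-0.12, and 0.091 for iPS5 minus iPS4), Itga5 (-0.039, and 0.10) and Itgal (0.016). With offset 0 they were Col11a1 (0.0093) and Itgav (0.0045) for iPS5 minus iPS1 and Itga5 (0.027) for iPS5 minus iPS4, where plain subtraction gave 0.00084 and median centring 0.045, and 0.075 for Itga3. Scaled arrays gave -0.013 for Itgal, iPS5 minus iPS1. Without line iPS5 they were Itga6 (-0.11) and Lama1 (-0.32), and without line iPS1 Lama4 (0.014). Without 1 array, means ran from -0.0015 to 0.11 for Col11a1, -0.031 to 0.13 for Col4a6 and -0.016 to 0.011 for Lama4, and iPS5 minus iPS4 from -0.13 to 0.0020 for Itga3 and -0.15 to 0.059 for Itga5. The cause of these changes was not tested. Each ratio pairs a line with the ES pool on 1 array. Arrays of different lines could not be paired because the labels carry no replicate numbers. Signal over background limits the 42 members with a channel not above background on some array.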
